A study of Rattus norvegicus with 10 samples.

Results

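The BCL2 family regulators of apoptosis were followed in rat liver as a set of 10 genes: Bax, Bak1, Bbc3, Pmaip1, Bid, Bcl2, Bcl2l1, Bcl2l11, Mcl1 and Bad. Probes of the array were tied to genes by their accession, and 9 of the 10 members had at least 1 probe, giving 14 probes among 41012 on the array and 9 genes among 13438 with a symbol. No probe of the array carried Pmaip1 by this route, so the gene was not analysed here. Liver RNA came from 10 male Wistar rats, hybridised 1 rat to an array. The 3 control rats had received 0 Gy, the 3 TBI rats total-body irradiation of 6.5 Gy from a cobalt source, and the 4 MASM+TBI rats the same dose after 30 mg/kg body weight MASM, a derivative of the plant alkaloid matrine, by stomach tube on each of 3 days before irradiation. Livers were taken 24 h after irradiation. The labels name the array dose as 6.5 Gy while the study's text gives another dose, and they name no vehicle for the control and TBI rats. Arrays of rats given MASM without irradiation were not analysed here. MASM+TBI versus control therefore differs in both irradiation and pretreatment, and MASM+TBI versus TBI in pretreatment among irradiated rats.

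Proteins of the BCL2 family decide whether the outer mitochondrial membrane is opened. Bax and Bak1 are the effectors that form the pore, Bcl2, Bcl2l1 (BCL-XL) and Mcl1 hold them in check, and the BH3-only members Bbc3 (PUMA), Bid, Bcl2l11 (BIM), Bad and Pmaip1 (NOXA) start the process by binding either side. In irradiated tissue p53 is known to raise transcription of Bax, Bbc3 and Pmaip1, and hepatocytes are known to depend on BCL-XL and MCL-1 for survival. Much of the family is controlled after transcription, by phosphorylation, cleavage or protein turnover, which an array of RNA does not measure.

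The promoter windows of 8 members, with 11 transcription starts, were found among 33469 windows of the RefSeq annotation of build GRCr8, each running from 250 bases before the start to 50 after it. They are shown for Bcl2l11, Bcl2l1 and Bad, the members other than Bax whose values differed most between rats or groups and that held a searched motif. Each is written in the direction of transcription, and capitals mark the matches. In Bcl2l11 (chr3:135819792-135820091, plus strand) they mark GTAAACA, a FOXO motif, which 3.78% of all windows held on either strand. In Bcl2l1 (chr3:161763336-161763635, minus strand, 1 of 4 annotated starts) they mark TTCNNNGAA, a STAT motif held by 8.87% of windows. In Bad (chr1:213562864-213563163, plus strand) they mark 1 match to each of these motifs, the FOXO match on the opposite strand.
Bcl2l11: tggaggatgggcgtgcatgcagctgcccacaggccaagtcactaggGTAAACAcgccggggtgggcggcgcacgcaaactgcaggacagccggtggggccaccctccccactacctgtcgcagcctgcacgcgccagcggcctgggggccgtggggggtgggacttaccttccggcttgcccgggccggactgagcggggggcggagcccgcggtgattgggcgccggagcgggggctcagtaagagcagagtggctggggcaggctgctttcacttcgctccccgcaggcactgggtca
Bcl2l1: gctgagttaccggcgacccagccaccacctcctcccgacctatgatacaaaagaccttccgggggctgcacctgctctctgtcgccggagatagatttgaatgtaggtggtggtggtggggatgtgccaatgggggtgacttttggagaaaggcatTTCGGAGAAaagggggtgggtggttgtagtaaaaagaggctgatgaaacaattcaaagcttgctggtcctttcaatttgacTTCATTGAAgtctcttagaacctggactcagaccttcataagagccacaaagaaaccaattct
Bad: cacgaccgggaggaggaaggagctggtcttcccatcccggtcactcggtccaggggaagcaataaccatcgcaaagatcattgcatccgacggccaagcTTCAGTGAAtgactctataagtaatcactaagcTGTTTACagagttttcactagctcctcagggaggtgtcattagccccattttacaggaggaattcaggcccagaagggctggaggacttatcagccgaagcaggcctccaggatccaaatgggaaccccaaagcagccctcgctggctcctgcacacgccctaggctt

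The Bcl2l11 window was rich in G and C, at 71% of bases against a median of 51.7% over all windows, while the Bcl2l1 and Bad windows held 49.7% and 54.3%. The 2 STAT matches of the Bcl2l1 window also lie in the window of a neighbouring start that overlaps it. A further Bcl2l1 start held TTTCGCGC, an E2F motif present in 0.326% of windows, and Bcl2 held TATAAA, found in 14.2%. The p53 half-site, searched by its name's usual consensus and present in 7.98% of windows, was in none of the 11 member windows, and neither was the E box CACGTG, present in 6.42%. The windows of Mcl1, Bak1, Bid and Pmaip1 held no match to any of the 6 motifs. Windows of Bax and Bbc3 were not searched here. A match is a run of letters and was not tested as a binding site.

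Signals are given as log2 of the processed intensity after quantile normalization, so that 1 unit is a 2-fold difference, and levels are compared only within a probe. On the arrays 56.2% to 70.1% of spots were well above background, with the 3 TBI arrays the highest (64.1% to 70.1%). Of the 14 member probes, 12 were well above background on all 10 arrays. The Bcl2 probe and the Bcl2l1 probe A_43_P12577 were so on 0 arrays, so their values bound no level. The 3 control arrays and the array of MASM+TBI rat 3 shared a slide, the 3 TBI arrays lay on another, and the remaining 3 MASM+TBI arrays on the last. Slide and group cannot be told apart for TBI versus control or for MASM+TBI versus TBI, since no TBI array shared a slide with another group. Where the slide is used as a fixed block below, the MASM+TBI arm on the shared slide is 1 array, assumed to vary like the other arrays. One picture in the study names the control arrays as irradiated and the TBI arrays as control. The labels of the arrays were followed here, and under them Cdkn1a, the p53 target that encodes the cell cycle inhibitor p21, had log2 signals of 8.01, 8.25 and 8.84 in control rats and of 12.80 to 14.06 in the 7 irradiated rats. All 8 hepatocyte markers, albumin among them, were measured, with mean log2 signals per rat of 15.39 to 16.02.

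Bax, the pore-forming effector, was the member that separated irradiated from control livers most clearly. Its log2 signals were 8.02, 8.01 and 8.17 in control rats 1 to 3. They were 9.14, 9.33 and 9.31 in TBI rats 1 to 3 and 9.34, 9.11, 9.17 and 9.33 in MASM+TBI rats 1 to 4. Every irradiated rat therefore lay above every control rat, and the irradiated groups overlapped throughout. As normalised intensities, the control rats gave 260, 258 and 287 and the irradiated rats 554 to 648. Bax rose 2.29-fold in TBI rats (95% interval 1.97 to 2.67, limma adjusted p = 0.000818) and 2.25-fold in MASM+TBI rats (1.95 to 2.60, limma adjusted p = 0.000793). By p value it was the 55th and the 38th of 40945 probes in these comparisons. The MASM+TBI array on the slide of the controls exceeded their mean by 1.10 on the log2 scale, and the other 3 MASM+TBI arrays by 1.20, and with the slide as a fixed block the difference was 1.10 with an adjusted p of 0.0341. Between the irradiated groups Bax differed by -0.02, with a ratio of 0.984 and a 95% interval of 0.852 to 1.14. The interval excludes a ratio in which the MASM+TBI level is lower by more than about 15% of the TBI level.

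**Figure D1:**
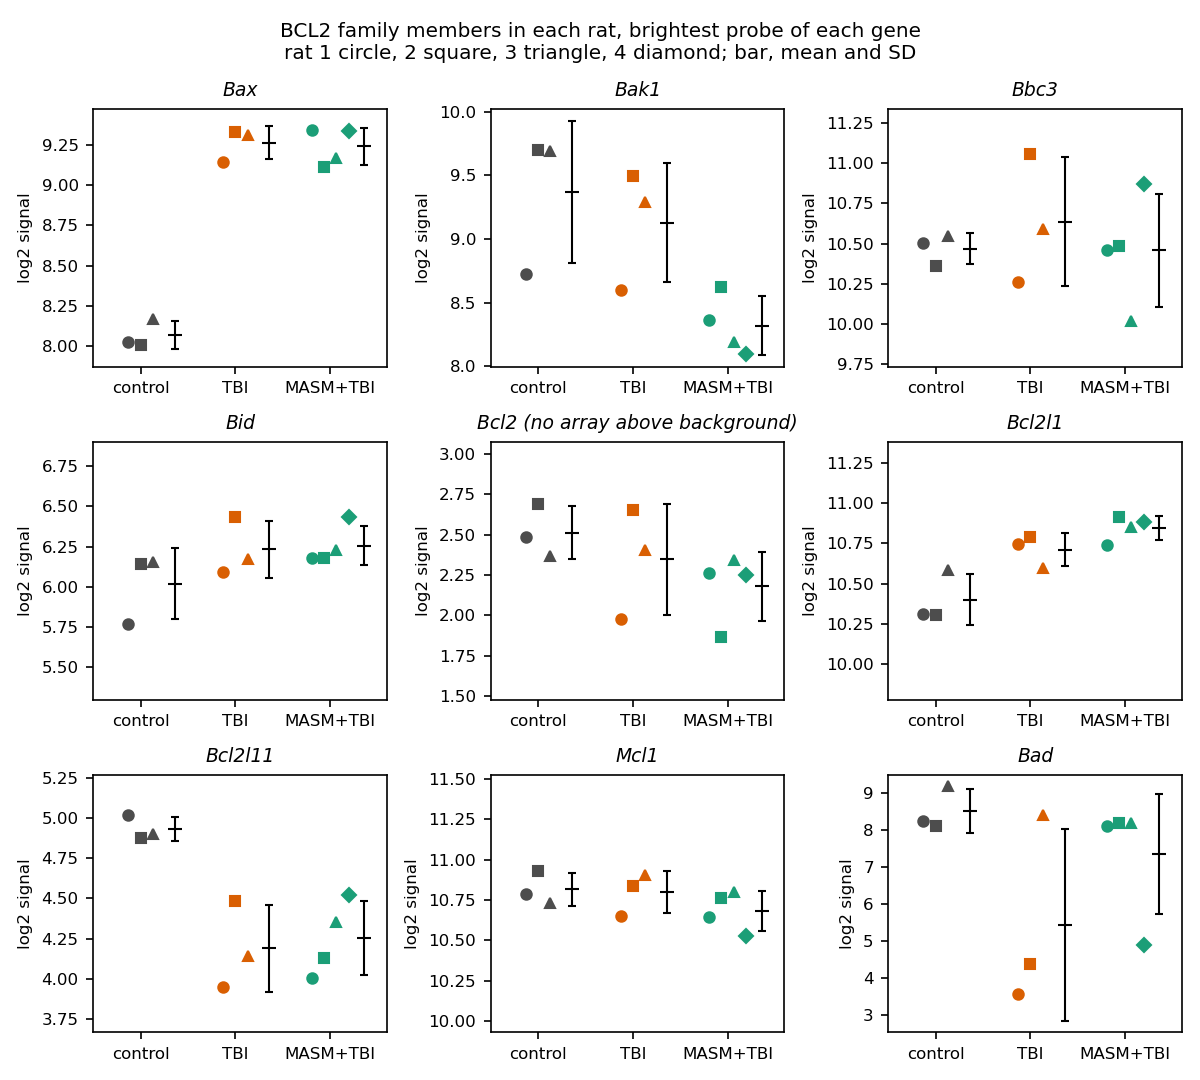
Log2 signal (vertical axis, a separate scale in each panel) of the brightest probe of the 9 measured members in each of 3 control, 3 TBI and 4 MASM+TBI rats, with the group mean and SD beside the points. Bax lies near 8.1 in control rats and between 9.11 and 9.34 in all irradiated rats, Bcl2l11 is lower in every irradiated rat, and Bad splits the rats within groups.

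Bak1, the other effector, did not share this pattern. Its log2 signals were 8.73, 9.70 and 9.69 in control rats, 8.60, 9.50 and 9.29 in TBI rats and 8.37, 8.62, 8.19 and 8.10 in MASM+TBI rats. All 4 MASM+TBI rats lay below the 3 control rats, although control rat 1 was just above the highest of them, and TBI rat 1 lay among them. The difference was -1.05 between MASM+TBI and control (SE 0.30, limma adjusted p = 0.107) and -0.81 between MASM+TBI and TBI (95% interval -1.49 to -0.13, limma unadjusted p = 0.0245, adjusted p = 0.217). TBI and control differed by -0.24 (interval -0.97 to 0.48). None of these passed the adjusted threshold. Without control rat 1 the MASM+TBI versus control difference was -1.38 and passed it (limma adjusted p = 0.0412), as it did with the slide as a random block (0.0483). The MASM+TBI array on the slide of the controls differed from their mean by -1.18 and the other 3 by -1.01, and with the slide as a fixed block the adjusted p was 0.301.

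Bak1 moved from rat to rat with markers of natural killer cells, lymphocytes and Kupffer cells, more than with those of neutrophils. The mean log2 signal of 6 natural killer and cytotoxic cell markers was 6.78, 7.99 and 7.38 in control rats, 6.27, 7.79 and 7.32 in TBI rats and 6.63, 6.10, 5.94 and 5.66 in MASM+TBI rats, and the rats with low Bak1 in the control and TBI groups were those with low marker values. Over the 10 rats, Bak1 and this mean had a Pearson correlation of 0.94 and a Spearman correlation of 0.94, and Pearson's was 0.90 without the 2 rats farthest from the median. The correlation was 0.81 with 9 T lymphocyte markers, 0.77 with 5 B lymphocyte markers, 0.71 with 7 Kupffer cell markers, 0.03 with 5 neutrophil markers and -0.29 with the hepatocyte markers. With the sinusoidal endothelium and erythroid markers it was 0.57 and 0.23. Bax and the brightest Bcl2l1 probe correlated with the T lymphocyte markers at -0.86 and -0.81, and Bcl2l11 at 0.76, but for these members the control and irradiated rats lie apart. Within the 7 irradiated rats the values with the T lymphocyte markers were 0.38 for Bax, -0.46 for Bcl2l1 and -0.04 for Bcl2l11. Within the same 7 rats Bak1 correlated at 0.95 with the Kupffer cell markers, 0.94 with the natural killer and cytotoxic markers, 0.83 with the T lymphocyte markers, 0.79 with the B lymphocyte markers and 0.77 with the sinusoidal endothelium markers. The values were 0.40 with the neutrophil, 0.35 with the erythroid and 0.03 with the hepatocyte markers. These are descriptions over at most 10 arrays that share slides and groups, and a slide held too few arrays for a value of its own. The summed intensity of the 6 natural killer and cytotoxic markers ranged from 1892 to 4327 in control rats, 1159 to 3617 in TBI rats and 749 to 1451 in MASM+TBI rats, with 0 of the 6 markers passing the adjusted threshold in any of the 3 comparisons. The part of these cells in the member values was not tested, and in whole liver fewer cells of a type and less RNA per cell cannot be told apart. Of 8438 genes compared, those whose signals were most like Bak1 over the 10 arrays were Rhog, Cyba and Ripk3, with correlations of 0.99.

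**Figure D2:**
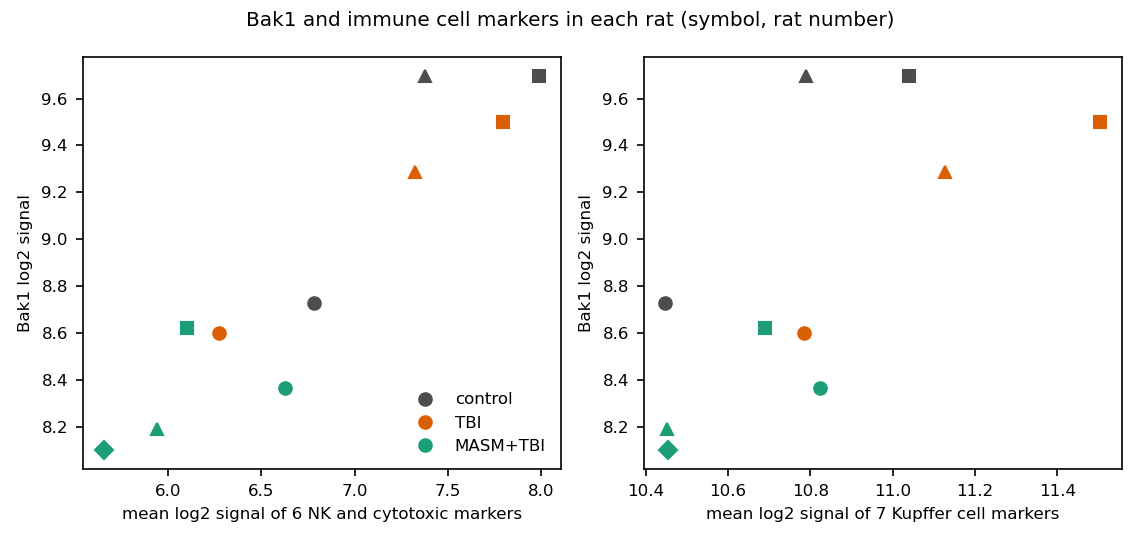
Log2 signal of Bak1 (vertical axis) against the mean log2 signal of 6 natural killer and cytotoxic markers (left) and of 7 Kupffer cell markers (right) in each of 10 rats, coloured by group with the symbol giving the rat number. The correlation over 10 rats is 0.94 on the left and 0.71 on the right (0.94 and 0.95 within the 7 irradiated rats), and the 4 MASM+TBI rats lie at the lower left of the left panel together with TBI rat 1 and control rat 1.

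Among the restraining members, Bcl2l1 showed small differences in 1 direction. The brightest of its 4 probes, A_44_P254238, gave 10.31, 10.31 and 10.58 in control rats, 10.75, 10.79 and 10.60 in TBI rats and 10.74, 10.91, 10.85 and 10.88 in MASM+TBI rats. All 7 irradiated rats lay above all 3 control rats, though TBI rat 3 exceeded control rat 3 by a narrow margin. By this probe Bcl2l1 rose 1.36-fold in MASM+TBI rats (95% interval 1.17 to 1.58, limma adjusted p = 0.0477), and the estimate in TBI rats was 1.24-fold (1.06 to 1.46, adjusted p = 0.114). The call in MASM+TBI rats held in 7 of 22 other settings for this probe. Among the 7 is the deposited value list, which held the same intensities and could not differ. Settings that ask for 1.5-fold could not keep a 1.36-fold estimate. The call was lost without control rat 1 or 2, without TBI rat 1 or 2 and without any 1 of the MASM+TBI rats, with limma adjusted p of 0.0608 to 0.155. The MASM+TBI array on the slide of the controls gave a difference of 0.45 and the other 3 arrays 0.44, while with the slide as a fixed block the adjusted p was 0.261.

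The other Bcl2l1 probes above background gave estimates in the same direction. Probe A_42_P623909 read 6.36, 6.80 and 6.79 in control rats, 7.19, 7.25 and 6.85 in TBI rats and 7.002, 7.31, 7.21 and 7.27 in MASM+TBI rats, again with all irradiated rats above all control rats. Its differences from control were 0.45 for the TBI group (limma adjusted p = 0.140) and 0.55 for the MASM+TBI group (adjusted p = 0.0975). Probe A_44_P548065 read 6.42, 6.93 and 6.62 in control rats, 7.25, 6.94 and 6.69 in TBI rats and 6.91, 7.24, 6.96 and 7.05 in MASM+TBI rats, and here the groups overlapped. Its differences from control were 0.30 and 0.38, with adjusted p of 0.342 and 0.286. The 3 probes correlated with each other at 0.69 to 0.91 over the 10 arrays. Because they read 1 transcript family, they are not separate evidence. The irradiated groups differed by 0.13, 0.10 and 0.08 on these probes, and the widest of the 3 intervals ran from -0.30 to 0.46.

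Mcl1, the short-lived restraining member, had no probe past the threshold. Its brighter probe, A_44_P280965, read 10.78, 10.93 and 10.73 in control rats, 10.65, 10.84 and 10.91 in TBI rats and 10.65, 10.76, 10.80 and 10.53 in MASM+TBI rats. The groups overlapped, with TBI rat 1 and MASM+TBI rats 1 and 4 below the control rats. The difference between TBI and control was -0.02 with a 95% interval from -0.26 to 0.23, and between MASM+TBI and control -0.13, from -0.36 to 0.10. The dimmer probe A_44_P101211 ranged from 9.17 to 9.83 over all rats and gave differences of 0.09 and 0.03. Bcl2 read 1.87 to 2.69 over all rats and was not well above background on any array, so no fold is given.

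Among the BH3-only members, Bcl2l11 had lower signal after irradiation. The log2 signals were 5.02, 4.87 and 4.90 in control rats, 3.95, 4.48 and 4.14 in TBI rats and 4.004, 4.13, 4.35 and 4.52 in MASM+TBI rats. All 7 irradiated rats lay below all 3 control rats. Bcl2l11 fell by 0.74 in TBI rats (95% interval -1.13 to -0.35, limma adjusted p = 0.0425), to 0.599 of the control level. MASM+TBI rats gave an estimate of -0.68 (interval -1.04 to -0.32, adjusted p = 0.0628), and the irradiated groups differed by 0.06 (interval -0.30 to 0.42). The array of MASM+TBI rat 3, on the slide of the controls, differed from their mean by -0.58. The probe was dim. The dimmest probe well above background read 3.71 to 4.004 over the arrays of control rats, 2.54 to 3.16 over those of TBI rats and 3.68 to 4.09 over those of MASM+TBI rats. With background correction by the normexp method, which adds an offset, the difference between TBI and control was -0.16 and passed the threshold (adjusted p = 0.0342). The call in TBI rats was lost in 11 of 21 other settings, among them the removal of any 1 control rat (adjusted p of 0.0915 to 0.115), of TBI rat 1 (0.0905), of TBI rat 3 (0.0779), of MASM+TBI rat 2 (0.0617) and of MASM+TBI rat 3 (0.0517). The MASM+TBI versus control difference passed in 4 of 22 other settings. It passed with the dim probes left out (limma adjusted p = 0.0385), with the slide as a random block (0.0211) and without TBI rat 2 (0.0497). The last setting was the study's threshold, applied here to the unadjusted limma p.

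Bbc3, the classical p53 target that encodes PUMA, did not pass the threshold in any comparison. It read 10.50, 10.36 and 10.54 in control rats, 10.26, 11.05 and 10.59 in TBI rats and 10.46, 10.48, 10.02 and 10.87 in MASM+TBI rats. The irradiated rats lay on both sides of the control rats and spread over 1.04 log2 units, against 0.19 among the controls. The TBI to control ratio was 1.12, with a 95% interval of 0.764 to 1.65, and the MASM+TBI to control ratio was 0.992, with an interval of 0.692 to 1.42. Either interval excludes a 2-fold rise. Bax and Bbc3 therefore gave different values in the same livers, but the difference between the 2 genes was not tested.

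Bid, which links death receptors to mitochondria once its protein is cleaved, ranged from 5.77 to 6.15 in control rats, 6.09 to 6.43 in TBI rats and 6.18 to 6.44 in MASM+TBI rats. The MASM+TBI rats lay above the control rats by a small margin and the TBI rats overlapped them. Its differences from control were 0.21 (limma adjusted p = 0.400) and 0.23 (adjusted p = 0.432), with intervals that included 0.

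Bad, whose protein is held inactive by survival kinases, divided the rats within groups. Probe A_44_P991565 read 8.25, 8.11 and 9.19 in control rats, 3.55, 4.36 and 8.40 in TBI rats and 8.11, 8.19, 8.18 and 4.90 in MASM+TBI rats. TBI rats 1 and 2 and MASM+TBI rat 4 stood far below the other 7 rats. As normalised intensities these 3 rats gave 11.7, 20.6 and 29.9, and the others 275.5 to 582. The second probe, A_44_P199624, read 6.50, 6.48 and 7.07 in control rats, 5.46, 5.77 and 6.62 in TBI rats and 6.64, 6.49, 6.54 and 5.54 in MASM+TBI rats. The same 3 rats were lowest, and the probes correlated at 0.97 over the 10 arrays. The TBI to control differences were -3.08 (95% interval -6.11 to -0.05, limma adjusted p = 0.207) and -0.73 (interval -1.59 to 0.12, adjusted p = 0.281), neither past the threshold. Without TBI rat 3 the first was -4.56 and passed it (adjusted p = 0.0429). The MASM+TBI to TBI difference of 1.91 had an interval from -0.93 to 4.74, so these rats cannot give a direction for pretreatment.

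The 3 rats with low Bad signal were on different slides, 2 on the TBI slide and 1 on another. The 10 neighbouring genes of Bad on the chromosome that had a probe correlated with it at -0.43 to 0.77, and Vegfb, the highest, spanned less than 1 log2 unit over the rats. Within the 7 irradiated rats Bad correlated at 0.90 with the mean of the hepatocyte markers, whose values were 15.54, 15.64 and 15.68 in the 3 low rats and 15.77 to 16.02 in the other 4. Over all 10 rats the correlation was 0.18, the control rats having high Bad and hepatocyte means of 15.39 to 15.60. The part of these markers in the Bad values was not tested. The genes most like Bad over the 10 arrays were AKR1C3l1 (0.96), Cyp4f5 (0.95) and Rhbdf1 (0.94).

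**Figure D3:**
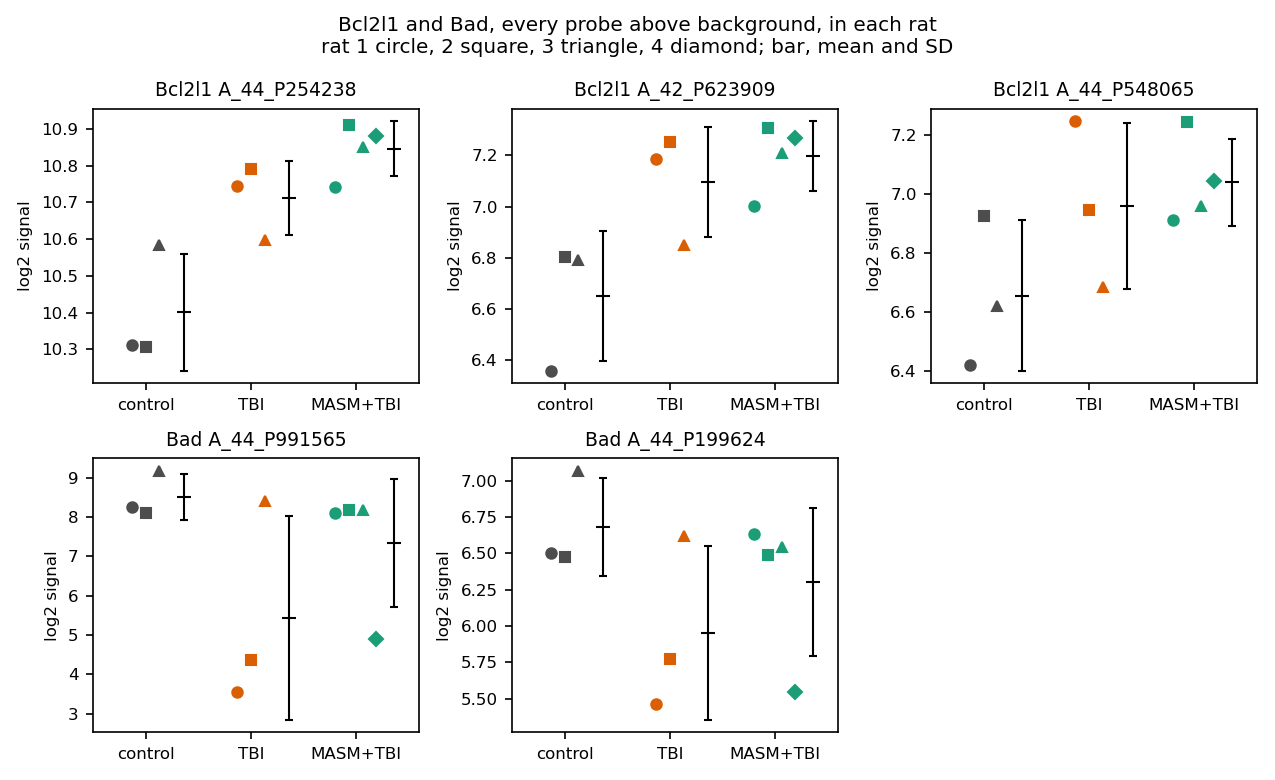
Log2 signal of the 3 Bcl2l1 probes (top) and the 2 Bad probes (bottom) that were well above background, in each rat, with group mean and SD; each panel has its own vertical scale. The Bcl2l1 panels show MASM+TBI means 0.38 to 0.55 above the control means, and both Bad panels show the same 3 low rats, TBI rats 1 and 2 and MASM+TBI rat 4.

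Over the whole set, TBI versus control called 2 of 14 member probes at an adjusted p under 0.05, Bax higher and Bcl2l11 lower, where 5.63% of all 40945 probes were called. MASM+TBI versus control called 2 of 14, Bax and 1 Bcl2l1 probe, both higher, against a background of 2.99%. MASM+TBI versus TBI called 0 of 14 by limma, against 1.63%, with 1 member, Bak1, at an unadjusted p under 0.05. With the study's threshold, an unadjusted p under 0.05 and at least 1.5-fold, the counts were 3 of 14 (background 12.6%), 3 of 14 (8.06%) and 1 of 14 (7.98%). The threshold was applied here to the limma p, whereas the study used a simple t-test. Groups did not overlap for 4 of 14 member probes in TBI versus control (30.3% of all probes), for 7 of 14 in MASM+TBI versus control (18.3%) and for 0 of 14 in MASM+TBI versus TBI (18.5%). These counts cover 3, 6 and 0 genes, as Bcl2l1 enters with more than 1 probe. The 6 genes include Bcl2, whose probe was not well above background on any array. The median size of a log2 difference was 0.31 over the member probes and 0.25 over all probes in TBI versus control, 0.38 and 0.20 in MASM+TBI versus control, and 0.13 and 0.20 in MASM+TBI versus TBI. The first 2 comparisons share the 3 control rats.

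Because Bax, Bcl2l1 and Bcl2l11 gave similar differences in both irradiated groups, the mean of these groups was also set against the controls, a comparison added after the values were seen. It was chosen for these 3 genes and uses the same 3 control rats, so its values restate the differences above and are no further support for them. It called 3 of 14 member probes (background 4.82%). Bax rose by 1.18 (limma adjusted p = 0.000305), Bcl2l1 A_44_P254238 rose by 0.38 (adjusted p = 0.0454) and Bcl2l11 fell by 0.71 (adjusted p = 0.0307). In 4 of 14 probes, from 3 genes, the 7 irradiated rats did not overlap the 3 control rats (background 8.89%). Leaving out control rat 1, control rat 2, MASM+TBI rat 1 or MASM+TBI rat 2 reduced the count to 1, Bax, while the share of all probes called was 2.94%, 2.03%, 2.91% and 3.78%. The Bcl2l1 call was lost in 14 of 21 other settings, among them the removal of any of these 4 rats, of TBI rat 1 (limma adjusted p = 0.0739), of TBI rat 2 (0.073), of MASM+TBI rat 3 (0.0697) and of MASM+TBI rat 4 (0.0794). The Bcl2l11 call was lost in 6 of 21, including without control rat 3 (0.107).

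**Figure D4:**
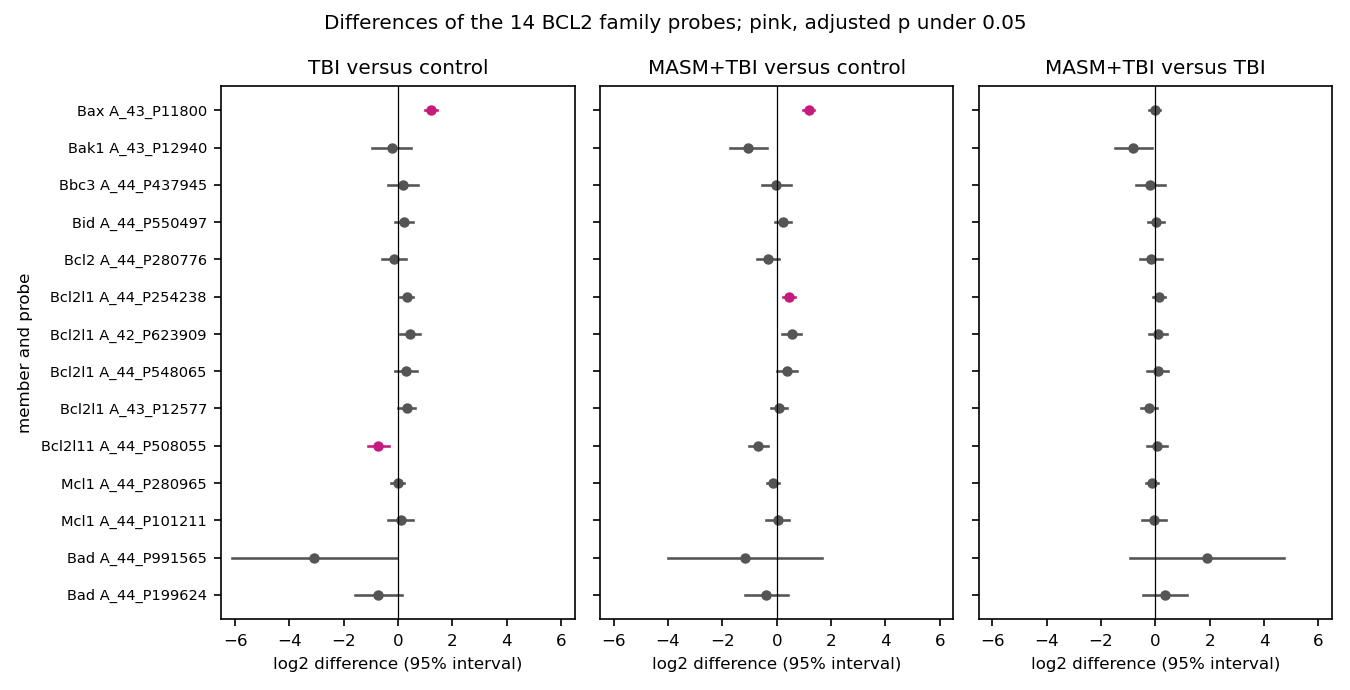
Log2 difference (horizontal axis) with its 95% interval for each of the 14 member probes in 3 comparisons, with pink marking a limma adjusted p under 0.05. Bax stands at 1.20 and 1.17 against control and at -0.02 between the irradiated groups, and the intervals of the first Bad probe span several log2 units.

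Other genes of the family, together with BNIP genes, which are not all members of it, were taken from a list of 16, of which 15 had a probe. In TBI rats 3 rose and 0 fell, where 2.44% of all probes were called higher and 3.19% lower. These shares hold for the lists below as well. The 3 were Bik, a BH3-only gene (limma adjusted p = 0.0393), Bcl2l10, a relative of Bcl2, by 1.01 (adjusted p = 0.0163) and the BNIP gene Bnipl by 1.12 (adjusted p = 0.0214). Bik read 4.25, 3.89 and 3.49 in control rats and 4.51 to 5.31 in irradiated rats, well above background on 2 of 3 control arrays and on all 7 others, so no fold is given for it. In MASM+TBI rats it also rose (adjusted p = 0.0330), while the estimates for Bcl2l10 and Bnipl were 0.37 and 0.41. No gene of the list passed the threshold between the irradiated groups. Bcl2a1, a restraining relative found in blood cells, read 5.28 to 6.37 in MASM+TBI rats and 6.11 to 7.69 in TBI rats, a difference of -1.30 that did not pass.

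Genes that act on the family were drawn from a list of 29, of which 22 had a probe. In TBI rats 4 rose, Mdm2 and Mdm4, which restrain p53, by 0.96 and 0.76, Tp53inp1 by 1.34 and Atf4, a stress transcription factor, by 0.59 (limma adjusted p of 0.0162, 0.0070, 0.0037 and 0.0477). E2f1, a cell cycle transcription factor, fell by 2.36 (adjusted p = 0.0014), from 6.87 to 7.11 in control rats to 4.28 to 4.90 in TBI rats. In MASM+TBI rats Mdm2, Mdm4 and Tp53inp1 rose again and E2f1 fell by 2.08. Mdm2 and Tp53inp1 are also on the list of p53 targets below and are counted in both lists. Foxo3, Stat3, Stat5a and Stat5b belong to the families whose motifs are capitalised in the promoters, and none passed in TBI rats. Foxo3 gave -0.34, with control rats at 4.57, 4.81 and 6.74 and TBI rats at 4.27 to 5.51. Stat3 gave 0.45. Stat5a read 9.02 to 9.10 in control rats and 8.89 to 9.32 in TBI rats, and Stat5b 6.54 to 7.27 and 7.05 to 7.10.

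Downstream of the membrane, all 21 listed genes of the mitochondrial pore and the apoptosome had a probe, and 0 of the 21 passed in TBI rats by limma. Apaf1, the scaffold of the apoptosome, fell by 0.49 in MASM+TBI rats (limma adjusted p = 0.0186), where it read 6.70 to 6.80 against 7.22 to 7.26 in control rats, and its estimate in TBI rats was -0.34 (adjusted p = 0.059). Cycs, which encodes cytochrome c, gave 0.42 in TBI rats without passing.

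Of 28 textbook p53 targets outside the family 22 were measured, and 11 rose and 0 fell in TBI rats, with a median difference of 0.97. Of all probes 2.44% were called higher and 3.19% lower in this comparison, and 1.26% and 1.73% in MASM+TBI versus control. Cdkn1a rose by 5.36, Gdf15 by 4.26, Btg2 by 3.13, Phlda3 by 2.55 and Ccng1 by 2.48 (limma adjusted p of 0.0001 to 0.0244). In MASM+TBI rats 11 rose and 1, the DNA repair gene Xpc, fell by 1.15 (adjusted p = 0.0216), and between the irradiated groups 0 of the 22 passed. The Bax differences of 1.20 and 1.17 stood beside list medians of 0.97 and 0.88. Over the 10 arrays the genes most like Bax among 8438 compared were Cdkn1a and Chmp3, each with a correlation of 0.99, and the ribosomal protein gene Rpl19, with 0.98. For Bax and Cdkn1a the control and irradiated rats lie apart, a gap that alone raises a correlation over all 10 arrays. Their correlation within the irradiated rats is not given here.

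**Figure D5:**
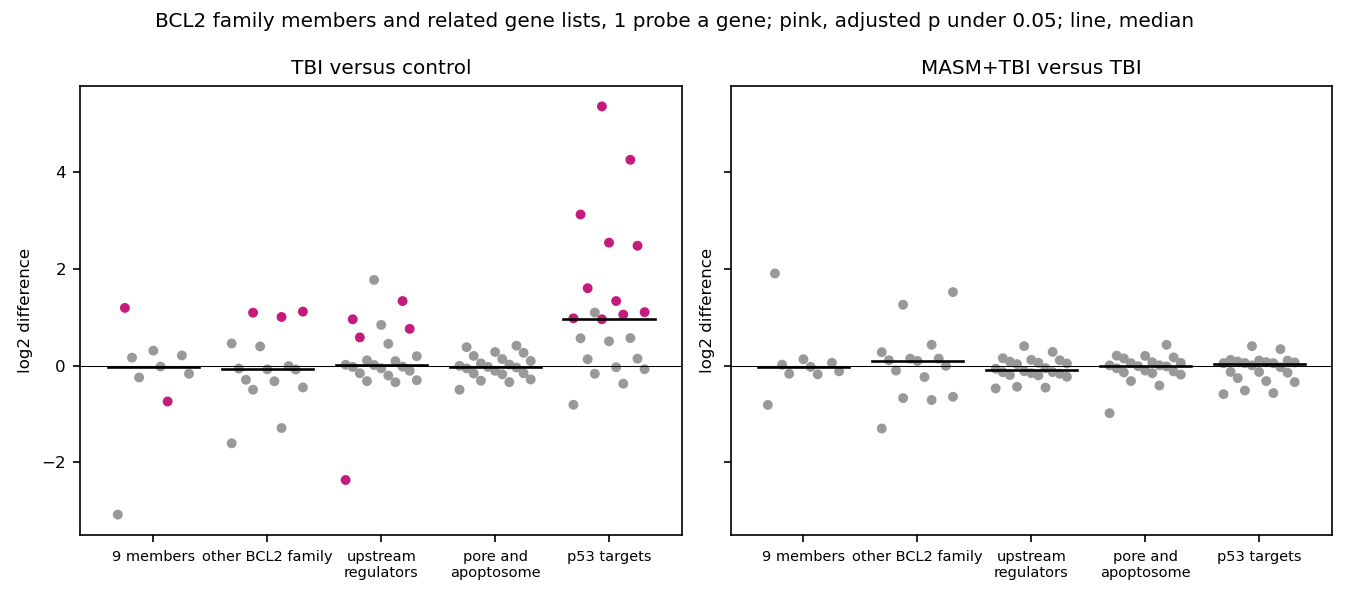
Log2 difference (vertical axis) of each gene, 1 probe a gene, for the 9 measured members and 4 lists of related genes in TBI versus control (left) and MASM+TBI versus TBI (right), with pink marking a limma adjusted p under 0.05 and lines marking medians. In the left panel 11 of 22 p53 targets are higher with a median of 0.97, and in the right panel no gene is marked.

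Some lymphocyte markers also differed between groups. Of 9 T lymphocyte markers 3 passed the threshold with lower signal in TBI rats (Cd2, Cd3e and Cd3g) and 2 in MASM+TBI rats (Cd3e and Cd3g). Cd3e was well above background on 0 of 10 arrays, so its values bound no level. Cd2 was so on all 3 control, 0 TBI and 2 MASM+TBI arrays, and Cd3g on 3, 2 and 1, so no fold is given for them. The other 6 did not pass in TBI rats, and the estimates of Cd8b, Cd4 and Lck against control were above 0, at 0.78, 0.71 and 0.55 (limma adjusted p of 0.158, 0.285 and 0.349). Cd8b, measured on every array, read 5.98 to 6.84 in control rats, 6.78 to 7.51 in TBI rats and 4.74 to 5.47 in MASM+TBI rats, and it fell by 2.01 from TBI to MASM+TBI rats (limma adjusted p = 0.0135). Of 5 B lymphocyte markers 1, Cd79b, passed with lower signal in both irradiated groups and the other 4 did not pass. Cd79b was well above background on all 3 control arrays and on 0 of the 7 irradiated ones, so its fold has only a bound. Cd22, measured on every array, read 7.06 to 7.16 in control rats, 7.26 to 7.96 in TBI rats and 6.83 to 7.25 in MASM+TBI rats. The summed B lymphocyte intensity was 205 to 225 in control rats, 174 to 298 in TBI rats and 141 to 188 in MASM+TBI rats. The summed T lymphocyte intensity was 677 to 911 in control rats, 469 to 643 in TBI rats and 300 to 490 in MASM+TBI rats. No marker of the hepatocyte, Kupffer cell, neutrophil, erythroid, endothelial or natural killer lists passed in these 3 comparisons.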

How the data were processed

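Liver RNA of 10 rats was labelled with Cy3 and hybridised to 4 x 44 K whole rat genome arrays, read with Agilent Feature Extraction 10.7.3.1. The authors deposited, for each spot, a processed signal intensity on a linear scale, background-subtracted and not normalized between arrays, and the value list they gave with them held the same intensities. Control spots (1639 of 45018) and outlier spots were left out, log2 intensities were quantile normalized and spots of a probe averaged. Accessions were matched to RefSeq genes of GRCr8 (16968 probes named). The array design rests on another build, so probes are given no position. A mean per group was fitted to all 10 arrays with limma 3.58.1 in R 4.3.3 for 40945 probes, with Benjamini-Hochberg adjustment over all of them, and the script was tested on simulated data. Plots used matplotlib 3.10.9 in Python 3.11.15. Groups and replicate numbers came from the labels, slides from the file headers.

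All probes of the 10 members are named, the brightest over all arrays being the main one, and other genes come from fixed lists. The members and lists were chosen with earlier results of these data known. Alternatives were scaling to the 75th percentile, normexp on median pixel signals with an offset of 50, other models and thresholds, the slide or the replicate number as a block, and each rat left out in turn. Array signal has no counting depth, and the number of rats limits the precision.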

Additional observations from a re-analysis of the deposited data

Results flagged for a closer look

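In the group of 4 MASM+TBI rats, 1 rat stood apart from the other 3 by Dixon's criterion for 3 of the 14 member probes, where chance gives about 1 in 20. They are not 3 separate events, since both Bad probes show the same rat and correlate at 0.97, and the third probe was at background. For Bad probe A_44_P991565 it was rat 4, at a log2 signal of 4.90 against 8.11 to 8.19, with a gap of 0.973 of the group's range. For Bad probe A_44_P199624 it was the same rat, at 5.54 against 6.49 to 6.64, with a gap of 0.867. For Bcl2l1 probe A_43_P12577, not well above background on any array, it was rat 1, at 1.65 against 1.86 to 1.90, with a gap of 0.844. The groups of 3 rats were not examined in this way.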

How the results depend on the processing

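Of 21 other settings for Bax, the call in TBI versus control was lost in 1, a Welch t-test at an adjusted p (0.129, with the difference still 1.20). The study read its t-test at an unadjusted p with a fold threshold, so this setting is not the study's rule. The call in MASM+TBI versus control was kept in all 22, among them the slide as a fixed block, with its 1 MASM+TBI array on the shared slide. The counts of member probes called are given with the share of all probes called in the same setting. In TBI versus control (2, 5.63%) the count became 1 with only these groups in the model (2.37%) and 0 by the Welch t-test at an adjusted p (0.0244%). It became 1 with a trended and robust prior (5.59%) and 4 with the slide as a random block (16.5%), and ranged from 1 to 2 with 1 rat left out (2.37% to 6.81%). With scaling to the 75th percentile it was 2 against 18.2%. In MASM+TBI versus control (2, 2.99%) it became 1 with scaling to the 75th percentile (1.99%), with 2 groups in the model (3.35%), by the Welch t-test at an adjusted p (0.0977%) and at a limma adjusted p with 1.5-fold (2.35%). It became 3 with dim probes left out (6.41%) and 5 with the slide as a random block (6.97%), and ranged from 1 to 2 with 1 rat left out (1.2% to 3.63%). In MASM+TBI versus TBI (0, 1.63%) it became 1 at the study's threshold on the limma p (7.98%) and was 0 with any rat left out (0.611% to 3.1%). For all irradiated rats versus control (3, 4.82%) it ranged from 1 to 4 (1.67% to 6.19% with 1 rat left out, 11.8% with the slide as a random block).

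Replicate numbers did not pair the rats: deviations of same-numbered rats correlated at -0.13 to 0.17. With the replicate block the 4 counts were 1, 1, 0 and 1, against 2.57%, 0.728%, 0.0537% and 2.19% of all probes. Over all probes the share of calls that were higher was 43.3% in TBI versus control and 24.3% with scaling to the 75th percentile, and 56.0% and 82.4% in MASM+TBI versus TBI.

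Estimates near 0 changed sign in places, none of them called; the cause was not tested. With scaling to the 75th percentile Mcl1 A_44_P280965 was 0.024 in TBI versus control, Bbc3 0.077 in MASM+TBI versus control, and Bcl2l11 -0.089 and Bid -0.016 in MASM+TBI versus TBI. With normexp Bbc3 was 0.024 in MASM+TBI versus control and Bid -0.018 in MASM+TBI versus TBI. With the replicate block Bcl2l11 was -0.029, Bid -0.038 and Mcl1 A_44_P101211 0.038 in MASM+TBI versus TBI. With the slide as a random block Bbc3 was 0.083 and Mcl1 A_44_P101211 -0.048 in MASM+TBI versus control, and the latter -0.00448 for all irradiated rats. With 1 rat left out, ranges in TBI versus control were -0.32 to 0.017 for Bcl2 (not well above background on any array, so without a direction), -0.042 to 0.35 for Bbc3, -0.57 to 0.022 for Bak1, -0.070 to 0.057 for Mcl1 A_44_P280965 and -0.054 to 0.22 for A_44_P101211. In MASM+TBI versus control they were -0.15 to 0.14 for Bbc3 and -0.091 to 0.16 for Mcl1 A_44_P101211. In MASM+TBI versus TBI they were -0.082 to 0.019 for Bax, -0.37 to 0.031 for Bbc3, -0.060 to 0.21 for Bcl2l11, -0.056 to 0.225 for Bcl2l1 A_44_P548065, -0.021 to 0.18 for A_42_P623909, -0.18 to 0.084 for Mcl1 A_44_P101211 and -0.048 to 0.12 for Bid. For all irradiated rats they were -0.026 to 0.17 for Bbc3 and -0.039 to 0.19 for Mcl1 A_44_P101211.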
